A study of Mus musculus with 10 samples.

Results

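The intermediate lobe (IL) of p27-/-;Sox2+/- mice was compared with that of wild-type (WT) mice across all measured genes. The comparison comprises the 3 libraries labelled p27-/-;Sox2+/- and the 4 labelled WT, chosen by genotype, out of 10 bulk RNA libraries in the series, with the 3 p27-/- libraries used for the spread and for a direct contrast of the mutants. The dissected ILs came from mice of 2 to 3 months. The p27-/-;Sox2+/- animals lacked both copies of p27 (Cdkn1b) and 1 copy of Sox2, the p27-/- animals lacked both copies of p27 with both copies of Sox2 present, and WT animals carried neither mutation. The mice were on a mixed background, and p27 was absent from every tissue rather than from melanotrophs alone. A group of Sox2+/- mice with intact p27 was not analysed here, so the contribution of the Sox2 allele cannot be told apart from that of p27 loss in the contrast with WT. By Xist, each sex was present in both groups, with 2 females of 4 in WT and 2 of 3 in p27-/-;Sox2+/-.

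P27 is an inhibitor of cyclin-dependent kinases that holds cells in G1, where D-type cyclins with CDK4 and CDK6 start the inactivation of RB and release the E2F program of DNA replication and mitosis. The IL is an avascular sheet of melanotrophs, which cleave POMC into melanocyte-stimulating hormone under the control of TBX19 and PAX7. Along the cleft it is bordered by an epithelium of SOX2-positive stem cells. Melanotrophs are normally quiescent, and the IL is the site where tumors form in mice without p27.

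The deposited values are log2 values of normalized counts, so all differences below are log2 differences, with p27-/-;Sox2+/- minus WT. The transformation behind them is not named, and where it shrinks low counts the differences of weakly expressed genes are smaller than those of their counts. Testing with limma covered 17268 genes whose mean reached 10 after conversion from log2, with Benjamini-Hochberg adjustment, and a gene was called when its adjusted p was under 0.05. The number of reads per library is unknown from these values, and precision is set by how many mice there were.

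Both targeted genes were lower in p27-/-;Sox2+/- samples. Cdkn1b (chr6:134920401-134925525 of GRCm38) had log2 values of 8.54, 8.85, 8.39 and 8.66 in WT and of 8.10, 7.73 and 7.83 in p27-/-;Sox2+/- samples, without overlap, and the difference was -0.72 (standard error 0.12, limma adjusted p = 0.00854). Its adjusted p rose to 0.0661 without p27-/-;Sox2+/- replicate 2. One value per gene does not show which part of the gene the remaining reads came from. Sox2 (chr3:34649995-34652461) had 7.34, 7.39, 7.75 and 7.34 in WT and 7.07, 6.88 and 7.04 in p27-/-;Sox2+/- samples. The groups did not overlap, but the difference of -0.46 (standard error 0.13) did not pass the threshold (limma adjusted p = 0.0811).

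Markers of melanotrophs were high in both groups. Pomc, Tbx19 and Pax7 had mean log2 values of 18.46, 10.72 and 11.60 in WT and of 18.43, 10.86 and 11.80 in p27-/-;Sox2+/- samples, and their differences of -0.03, 0.14 and 0.19 did not pass the threshold. Markers of tissue next to the IL varied within the groups. The mean of 15 posterior lobe markers, each centred over the 10 samples, lay between 0.46 and 0.62 in WT replicates 1, 3 and 4 but at -0.43 in WT replicate 2, and at -0.49 and -0.61 in p27-/-;Sox2+/- replicates 1 and 2 but at 0.48 in replicate 3. Of these 15 genes, 14 had a negative difference and limma called none (5 at an unadjusted p under 0.05). The mean of 11 anterior lobe markers was 1.35 in WT replicate 2 and otherwise between -0.24 and 0.07 in WT, against -0.57 to 0.08 in p27-/-;Sox2+/- samples. In bulk tissue, fewer cells of a type and less RNA per cell cannot be told apart.

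In p27-/-;Sox2+/- compared with WT IL, 468 of the 17268 tested genes (2.71%) were called, 143 higher (0.828%) and 325 lower (1.88%). The genes that rose included the synaptic organizer Cbln4, the semaphorin and VEGF coreceptor Nrp2, the tryptophan-degrading enzyme Ido2, the opioid precursor Pdyn and 5 genes of mitosis. The genes that fell included the D-type cyclins Ccnd2 and Ccnd1, the paraoxonase Pon2, the NMDA receptor subunit Grin3a, the RNA-binding protein Lin28b and several genes of the cleft epithelium and of Wnt, FGF and Notch signalling. The changes were moderate. The median difference was 0.57 among the higher genes (1.49-fold) and -0.67 among the lower genes (1.59-fold), against 0.01 over all tested genes, and 9 genes rose and 36 fell by more than 1 on the log2 scale. In 460 of the 468 genes every p27-/-;Sox2+/- sample lay on one side of every WT sample, where 15% of all tested genes had no overlap in either direction (7.02% higher and 8.01% lower).

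**Figure D1:**
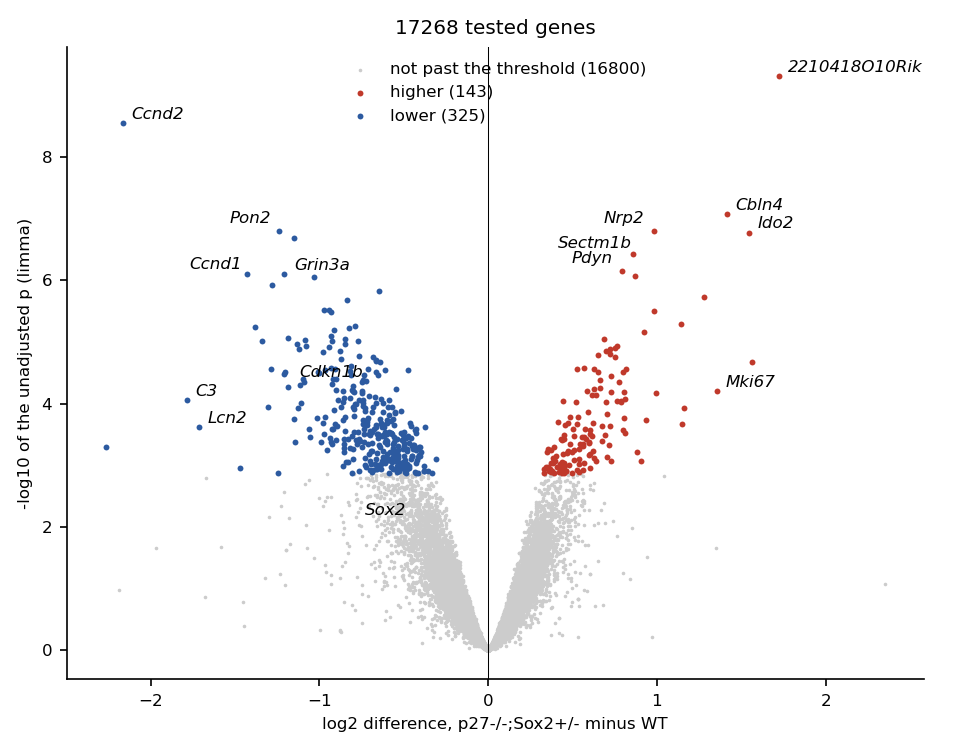
Difference of each of the 17268 tested genes between p27-/-;Sox2+/- and WT IL (x axis, log2) against the minus log10 of its unadjusted limma p (y axis). The 143 genes called higher are red, the 325 called lower are blue and the other genes are grey. Ccnd2 at -2.17 and 2210418O10Rik at 1.73 have the smallest p in their directions, and Sox2 lies in grey among the genes not called.

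The number of called genes depended on single libraries and on the posterior lobe markers. It was 80 without p27-/-;Sox2+/- replicate 2, 193 without replicate 1, 240 without replicate 3 and 219 without WT replicate 4, whereas with the mean of the posterior lobe markers as a covariate it was 124. In each of these fits all 468 genes kept their sign. In the 460 genes without overlap between the groups, leaving out a sample could not have reversed it. With the posterior lobe covariate, 120 of the 468 were called. In all 10 fits with a sample left out, 72 genes were called, 25 higher and 47 lower. Among called genes with a symbol and no overlap between the groups, those with the 12 smallest p-values in each direction are among them. Genes picked for a small p are likely to keep their calls when a sample is left out. They are described next, and for them the lack of overlap was a condition of selection, not a result.

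The gene with the smallest p among the higher genes was 2210418O10Rik (ENSMUSG00000078894, chr2:176226565-176261872). Its log2 values of 5.43, 5.47, 5.24 and 5.48 in WT rose to 7.19, 7.0 and 7.20 in p27-/-;Sox2+/- samples, a difference of 1.73 (standard error 0.11, 3.31-fold, limma adjusted p = 8.31e-06). Cbln4, a secreted protein of the cerebellin family that bridges synaptic partners, had 7.14, 7.48, 7.72 and 7.74 in WT and 8.84, 9.16 and 8.81 in p27-/-;Sox2+/- samples. Its difference was 1.42 (standard error 0.14, 2.67-fold, limma adjusted p = 0.00048), and the lowest mutant sample stood more than 1 above the highest WT sample. Nrp2, a coreceptor for class 3 semaphorins and VEGF-C, had 8.77, 8.48, 8.83 and 8.64 in WT and 9.75, 9.69 and 9.54 in p27-/-;Sox2+/- samples, and rose by 0.98 (standard error 0.10, limma adjusted p = 0.000484). Pdyn, which encodes prodynorphin, had 7.82, 7.76, 7.89 and 7.84 in WT and 8.51, 8.73 and 8.63 in p27-/-;Sox2+/- samples. As its selection required, no mutant sample of Pdyn overlapped with WT, and the rise was 0.79 (standard error 0.09, limma adjusted p = 0.00118).

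The other higher genes of this group were Ido2, Sectm1b, Olfm4, Mybpc1, Sox11, Sfrp1, Smc4 and Cacna1i. Sox11, a SOXC factor of differentiating neuroendocrine cells, had 8.94, 9.29, 8.61 and 9.21 in WT and 9.94, 10.02 and 10.02 in p27-/-;Sox2+/- samples and rose by 0.98 (standard error 0.13, limma adjusted p = 0.0027). Sfrp1, a secreted antagonist of Wnt ligands, had 7.08, 7.14, 6.36 and 6.97 in WT and 8.15, 7.98 and 7.97 in p27-/-;Sox2+/- samples and rose by 1.14 (standard error 0.16, limma adjusted p = 0.00405). In neither gene did the groups overlap, as their selection required. Olfm4, a secreted glycoprotein of gut crypt cells, rose by 0.87, Mybpc1, a sarcomeric myosin-binding protein, by 1.28, and Cacna1i, a T-type calcium channel, by 0.69 (limma adjusted p = 0.00118, 0.00198 and 0.00484). Crisp1, a secreted protein best known from the epididymis, was among the 5 largest rises at 1.57 (limma adjusted p = 0.00653), with values spread from 7.11 to 8.42 in p27-/-;Sox2+/- and from 5.90 to 6.68 in WT samples.

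Among the lower genes, Ccnd2 (chr6:127125162-127152188) had the smallest p. This D-type cyclin had 11.55, 11.87, 11.59 and 11.54 in WT and 9.91, 9.48 and 9.03 in p27-/-;Sox2+/- samples, which fell by 2.17 (standard error 0.16, 4.49-fold, limma adjusted p = 2.46e-05). Ccnd1 had 9.40, 9.97, 9.35 and 9.77 in WT and 8.46, 8.02 and 8.12 in p27-/-;Sox2+/- samples and fell by 1.43 (standard error 0.17, 2.69-fold, limma adjusted p = 0.00118). Both cyclins were lower in every mutant sample than in any WT sample, as their selection required. Ccnd3, the third D-type cyclin, had a difference of -0.32 that did not pass the threshold (limma adjusted p = 0.204).

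Pon2, a lactonase of mitochondrial and reticular membranes, had 8.11, 8.21, 8.61 and 8.57 in WT and 7.13, 7.16 and 7.13 in p27-/-;Sox2+/- samples, a fall of 1.24 (standard error 0.13, limma adjusted p = 0.000484). Its mutant samples had an SD of 0.016 against 0.25 in WT. Grin3a, an NMDA receptor subunit that lowers calcium permeability, had 9.96, 9.23, 9.63 and 9.55 in WT and 8.48, 8.47 and 8.19 in p27-/-;Sox2+/- samples and fell by 1.21 (standard error 0.14, limma adjusted p = 0.00118). Lin28b, which blocks maturation of let-7 miRNAs, fell by 1.03 from between 7.16 and 7.45 in WT to between 6.15 and 6.32 (limma adjusted p = 0.00118). The values of these genes did not overlap between the groups, as their selection required. Rab27b, a GTPase that docks secretory granules, fell by 0.65, Dnm3, a dynamin of endocytosis, by 0.79, Skap2, a Src family adaptor, by 0.84, and Plppr1, a neuronal membrane protein, by 0.93 (limma adjusted p = 0.00173, 0.00405, 0.00212 and 0.0027). Gm10419, Gm15982 and Phxr4, with no function known from their names, fell by 1.15, 0.82 and 1.38 (limma adjusted p = 0.000507, 0.00405 and 0.00405). With a minimum mean of 50, Ido2, Sectm1b and Gm15982 were below the filter and had no value.

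**Figure D2:**
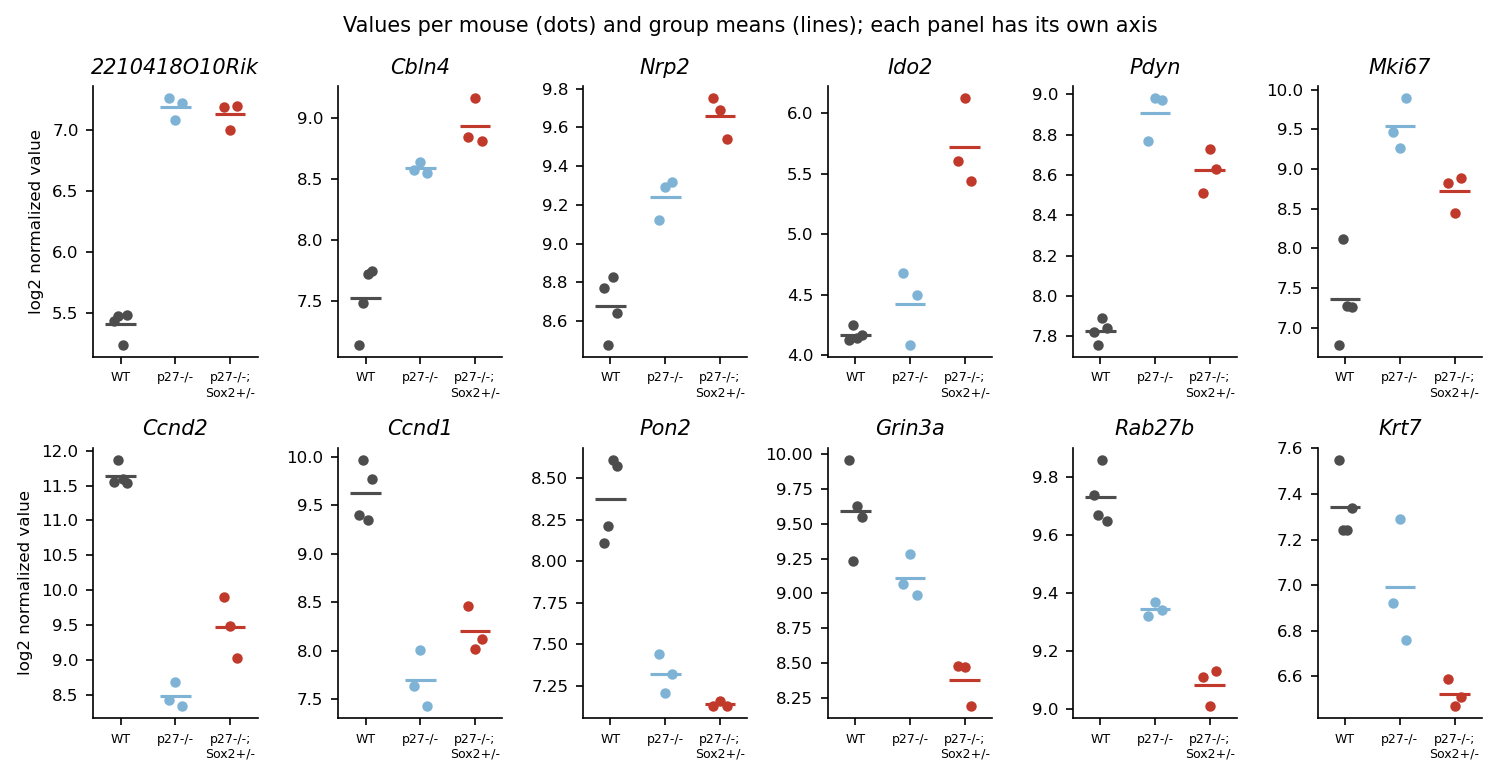
Log2 normalized value of 12 genes in each mouse (dots), with group means (lines), in WT (grey), p27-/- (light blue) and p27-/-;Sox2+/- (red) IL, and with a separate y axis per gene. In all 12 genes the p27-/-;Sox2+/- samples do not overlap with the WT samples, which the selection of all but Mki67 and Krt7 required. Mki67 and Krt7 were named as called genes, and 460 of the 468 called genes had no overlap. In Ido2 the p27-/- samples, up to 4.68, stay below those of p27-/-;Sox2+/-, which start at 5.44.

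The largest falls included 2 secreted proteins of innate immunity. C3, the central complement component, had 9.35, 7.83, 8.03 and 7.39 in WT and 6.10, 6.39 and 6.60 in p27-/-;Sox2+/- samples, and fell by 1.79 (standard error 0.33, limma adjusted p = 0.0126). Lcn2, an iron-siderophore binding protein, had 8.37, 7.77, 9.47 and 9.16 in WT and 7.66, 6.78 and 6.50 in p27-/-;Sox2+/- samples, and fell by 1.71 (standard error 0.35, limma adjusted p = 0.0209). The groups were separate in both genes, as their selection required, but the gap in Lcn2 was narrow. The call of C3 was lost without p27-/-;Sox2+/- replicate 1 or 2 (limma adjusted p = 0.062 and 0.0633), and that of Lcn2 without WT replicate 4 or p27-/-;Sox2+/- replicate 2 or 3 (0.0593, 0.107 and 0.0865). Both were lost with the posterior lobe covariate (0.0629 and 0.0988).

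Genes of the cell cycle were examined in lists. Of 61 tested mitosis genes, 5 were called higher and none lower, 8.2% against 2.71% of all genes, 58 had a positive difference and the median was 0.31. Of 48 DNA replication genes, 2 were called higher and none lower, 4.17% against 2.71% of all genes. In this list 40 had a positive difference and the median was 0.25, where the median over all tested genes was 0.01. Of 31 genes of recombination and checkpoints, limma called none (7 at an unadjusted p under 0.05) and 28 had a positive difference, with a median of 0.19. Of 27 G1 regulators only Ccnd1 and Ccnd2 were called (7.41%), both lower, and the median was 0.11. The medians of the mitosis and replication lists stayed between 0.23 and 0.39 and between 0.19 and 0.28 under every alternative tried.

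The called mitosis genes were Smc4, a condensin subunit, Ckap2 and Aspm, which act at the spindle, the proliferation marker Mki67 and the topoisomerase Top2a. Mki67 had 6.79, 8.12, 7.27 and 7.26 in WT and 8.82, 8.44 and 8.89 in p27-/-;Sox2+/- samples and rose by 1.36 (standard error 0.24, 2.56-fold, limma adjusted p = 0.0105). Top2a had 6.24, 6.98, 6.27 and 6.18 in WT and 7.69, 7.21 and 7.82 in p27-/-;Sox2+/- samples and rose by 1.16 (standard error 0.22, limma adjusted p = 0.014). In both genes WT replicate 2 was the highest WT sample and p27-/-;Sox2+/- replicate 2 the lowest mutant sample. Their groups did not overlap, as in 460 of the 468 called genes. Smc4 rose by 0.92, Aspm by 0.94 and Ckap2 by 0.78 (limma adjusted p = 0.00437, 0.0189 and 0.00878). Cdk1, the mitotic kinase, and its cyclin Ccnb1 had differences of 0.34 and 0.44 that did not pass the threshold (limma adjusted p = 0.21 and 0.141), and the groups overlapped. The 2 called replication genes, Clspn of the ATR checkpoint at forks and Ticrr of origin firing, rose by 0.45 and 0.47 (limma adjusted p = 0.0254 and 0.0318).

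Calls among these genes depended on single libraries. Smc4 and Mki67 were called in all 10 fits with a sample left out, Top2a was not called without p27-/-;Sox2+/- replicate 1 or 3 (limma adjusted p = 0.0656 and 0.0635), Ckap2 not without replicate 2 (0.0538), and Aspm not without WT replicate 4 or p27-/-;Sox2+/- replicate 1 or 3 (0.0547, 0.0806 and 0.0795). Clspn and Ticrr lost their calls without WT replicate 4 (0.0592 and 0.0597) and without each of p27-/-;Sox2+/- replicates 1, 2 and 3, with values up to 0.112, and Ticrr also without WT replicate 3 (0.0632). With the posterior lobe covariate 1 mitosis gene, Smc4, was called.

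Genes of mitosis often carry CCAAT boxes and a cell cycle gene homology region (CHR) near their start, and genes of replication often carry E2F sites. The upstream parts of 4 called cell cycle genes with a RefSeq promoter window are given as examples and do not stand for all called genes. They are read 5′ to 3′ on the strand of the gene from GRCm38.p6 and limited to bases outside annotated genes. Capitals mark motif letters on either strand. They are the box CCAAT, the CHR written TTTGAA or else written TTCGAA, the E2F site written TTCGCGC or else written TTGGCGC or else written TTCCCGC, and the SOX site written CTTTGTN or else written ACAATGG.
Mki67 (chr7:135716451-135716629, minus strand): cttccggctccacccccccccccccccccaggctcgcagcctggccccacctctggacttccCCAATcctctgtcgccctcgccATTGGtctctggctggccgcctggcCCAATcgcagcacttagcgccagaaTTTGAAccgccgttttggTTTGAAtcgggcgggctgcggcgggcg
Top2a (chr11:99024200-99024439, minus strand): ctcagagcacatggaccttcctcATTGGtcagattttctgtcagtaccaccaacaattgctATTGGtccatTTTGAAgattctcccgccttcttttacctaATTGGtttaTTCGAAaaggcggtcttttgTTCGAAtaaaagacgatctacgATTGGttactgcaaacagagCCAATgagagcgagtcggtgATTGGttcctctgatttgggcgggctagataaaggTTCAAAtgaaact
Ckap2 (chr8:22185820-22186027, minus strand): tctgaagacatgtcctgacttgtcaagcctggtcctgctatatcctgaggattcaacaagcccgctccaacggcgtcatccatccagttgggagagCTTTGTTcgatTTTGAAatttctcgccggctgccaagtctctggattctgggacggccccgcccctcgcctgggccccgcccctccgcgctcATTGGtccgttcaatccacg
Ticrr (chr7:79659946-79660195, plus strand): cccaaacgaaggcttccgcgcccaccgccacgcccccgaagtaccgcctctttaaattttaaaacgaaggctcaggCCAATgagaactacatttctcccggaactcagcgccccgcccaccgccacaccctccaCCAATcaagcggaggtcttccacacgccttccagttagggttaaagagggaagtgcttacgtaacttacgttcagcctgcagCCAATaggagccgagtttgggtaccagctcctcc

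The stretch of Mki67 held 3 CCAAT boxes and 2 CHR matches, that of Top2a 6 CCAAT boxes and 4 CHR matches, that of Ckap2 1 CCAAT box, 1 CHR and 1 SOX match and that of Ticrr 3 CCAAT boxes. Among called genes not printed, the window of Clspn held 2 CCAAT boxes and that of Aspm 3, whereas those of Nrp2, Pon2 and Sectm1b held no match. In windows of 250 bases before the start, CCAAT was found in 74.5% of 51 mitosis genes and 64.1% of 39 replication genes against 40.3% of 11180 tested genes with a window. CHR letters were found in 41.2%, 20.5% and 14.9%, and E2F letters in 17.6%, 46.2% and 13.7% of the same groups. Neither of the called replication genes, Clspn and Ticrr, held E2F letters. Among all called genes the shares were nearer to the background. CCAAT was found in 46.2% of the 104 higher and 38.8% of the 147 lower genes with a window, CHR letters in 22.1% and 17%, E2F letters in 11.5% and 10.9%, and SOX letters in 15.4% and 17.7%, against 16.2% of all genes. A match is a description of letters and does not show that a factor binds there.

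Of 30 melanotroph genes, 1 was called higher and 3 lower, 13.3% against 2.71% of all genes, and the median was 0.01. Besides Sox11, these were Tcf7l2, a transcriptional partner of beta-catenin, and Pam and Pcsk1, which amidate and cleave peptide hormones. They fell by 0.64, 0.42 and 0.42 (limma adjusted p = 0.0186, 0.0301 and 0.0498). Pcsk1 had 9.10, 9.04, 8.98 and 9.0 in WT and 8.39, 8.66 and 8.78 in p27-/-;Sox2+/- samples, and Pcsk2, the convertase that makes melanocyte-stimulating hormone, had a difference of 0.11 (limma adjusted p = 0.738). The Pcsk1 call was lost in 9 of the 10 fits with a sample left out, with adjusted p up to 0.181 without p27-/-;Sox2+/- replicate 1. Pam lost its call without WT replicate 3 (0.0668) or any p27-/-;Sox2+/- replicate (up to 0.112), and Tcf7l2 without WT replicate 4 (0.0545) or p27-/-;Sox2+/- replicate 2 or 3 (0.114 and 0.0504).

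Of 51 genes of regulated exocytosis, 3 were called, all lower, 5.88% against 2.71% of all genes, with a median of -0.01 over the list. They were Rab27b and Rab3c, GTPases of secretory granules, and the vesicle protein Syn2. Rab27b had 9.74, 9.67, 9.86 and 9.65 in WT and 9.11, 9.01 and 9.13 in p27-/-;Sox2+/- samples, whereas its paralog Rab27a had 10.01, 9.79, 9.80 and 9.81 and 10.49, 10.55 and 9.97. The Rab27a values overlapped, and its difference of 0.48 did not pass the threshold (limma adjusted p = 0.0583). Rab3c and Syn2 fell by 0.55 and 0.48 (limma adjusted p = 0.0104 and 0.0411). Without p27-/-;Sox2+/- replicate 2 only Rab27b of the 3 was called. Of 67 genes of receptors, transmitters and channels, 2 were called, both higher, and this share of 2.99% was near the 2.71% of all tested genes. Scn3b, a sodium channel beta subunit, rose by 0.72 and Kcnk3, a two-pore potassium channel that sets the resting potential, by 0.63 (limma adjusted p = 0.00525 and 0.00728), and both were called in all fits with a sample left out.

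Of 25 genes of pituitary stem cells and the cleft epithelium, 3 were called lower and the median was -0.17, with 17 of the 25 differences negative. Krt7, a keratin of simple epithelia, had 7.55, 7.24, 7.24 and 7.34 in WT and 6.59, 6.47 and 6.51 in p27-/-;Sox2+/- samples and fell by 0.82 (standard error 0.14, limma adjusted p = 0.00728). Cpxm2, a secreted carboxypeptidase-like protein, had 8.70, 8.86, 8.77 and 8.79 in WT and 8.24, 8.09 and 8.05 in p27-/-;Sox2+/- samples and fell by 0.65 (standard error 0.11, limma adjusted p = 0.00763). The third was Lcn2. Sox9, a stem cell factor of the same epithelium, had overlapping groups and a difference of -0.08 (limma adjusted p = 0.739), and the epithelial cadherin Cdh1 had -0.33 (limma adjusted p = 0.168). Thus the list did not move as one. Besides Sox2, Sox9 and the melanotroph list members Sox4 and Sox11, 7 other Sox factors were tested, of which limma called none (2 at an unadjusted p under 0.05), and among these 7 Sox6 had the smallest adjusted p (0.101, limma). Without p27-/-;Sox2+/- replicate 2 none of these 3 genes was called, with limma adjusted p of 0.0509 for Krt7, 0.0544 for Cpxm2 and 0.107 for Lcn2, and Lcn2 also lost its call without WT replicate 4 or with the posterior lobe covariate.

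Of 90 genes of Notch, Wnt, TGF-beta and FGF signalling, 2 were called higher and 7 lower, 10% against 2.71%, and the median was -0.12. Lower genes also made up 69.4% of all 468 called genes. Dkk3 and Sfrp5, secreted modulators of Wnt signalling, fell by 0.81 and 1.10 (limma adjusted p = 0.00763 and 0.0083), whereas Sfrp1 of the same family rose. The ligand Wnt4 fell by 0.57 (limma adjusted p = 0.0186). Fgfr1 had 8.76, 8.62, 9.13 and 8.98 in WT and 8.20, 7.91 and 8.26 in p27-/-;Sox2+/- samples, and fell by 0.75 (standard error 0.13, limma adjusted p = 0.00873). Its ligand Fgf1 had 10.60, 10.04, 10.10 and 10.32 in WT and 9.60, 9.52 and 9.59 in p27-/-;Sox2+/- samples, and fell by 0.69 (standard error 0.13, limma adjusted p = 0.0154). Neither gene had overlapping groups, as in 460 of the 468 called genes. The receptors Notch1 and Tgfbr2 fell by 0.71 and 0.58 (limma adjusted p = 0.0202 and 0.0398), and the ETS factor Etv1 rose by 0.38 (limma adjusted p = 0.031). Sfrp1 was the 1 gene of this list still called without p27-/-;Sox2+/- replicate 2, 5 were called without replicate 1, and 4 with the posterior lobe covariate.

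Adhesion and guidance genes changed in both directions. Of 72 genes of adhesion, junctions and basement membrane, 3 were called higher and 3 lower, 8.33% against 2.71% of all genes. In this list 51 had a negative difference, with a median of -0.18. Lamb1, a laminin chain of basement membranes, and Itga6, the integrin subunit that binds laminins, fell by 0.97 and 0.67, and the protocadherin Pcdh9 by 0.61 (each with a limma adjusted p of 0.00728). Flrt3, a ligand of UNC5 receptors and latrophilins, rose by 0.65, the contactin Cntn4 by 0.80 and the nectin Nectin1 by 0.45 (limma adjusted p = 0.00728, 0.0223 and 0.0498). Without p27-/-;Sox2+/- replicate 2 none of the 6 was called. Of 59 guidance genes, 4 were called, 6.78% against 2.71% of all genes. Nrp2 and the semaphorin Sema5a rose, the latter by 0.88, and the ephrin Efnb2 and the Slit receptor Robo1 fell by 0.60 and 0.50 (limma adjusted p = 0.0323, 0.0199 and 0.0231). Without p27-/-;Sox2+/- replicate 2, or with the posterior lobe covariate, Nrp2 was the 1 gene of the 4 still called, and without replicate 1 Nrp2 and Efnb2 were.

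**Figure D3:**
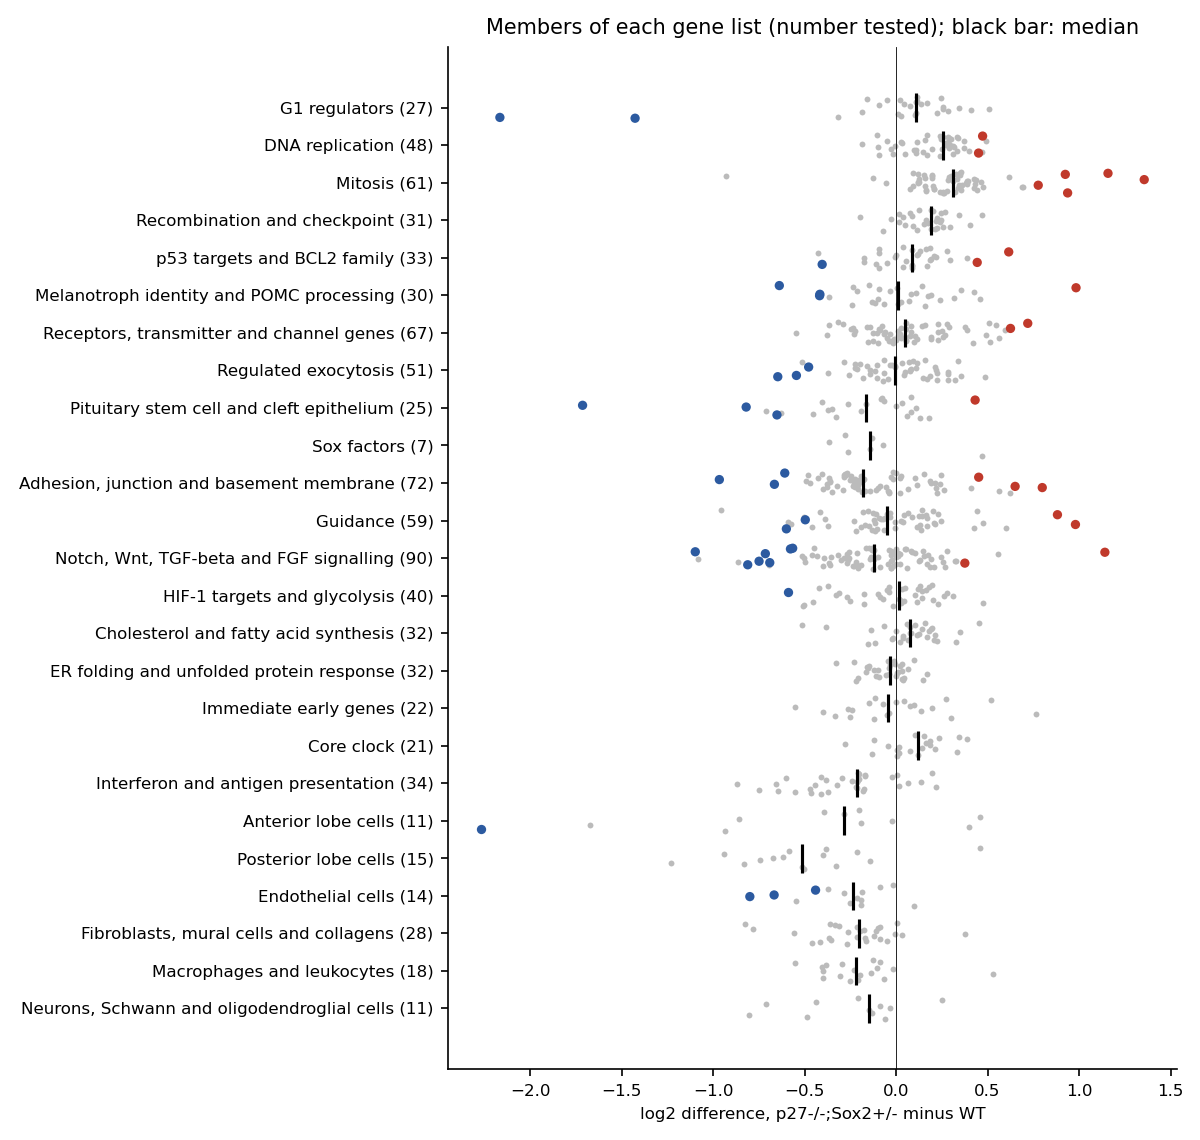
Log2 difference between p27-/-;Sox2+/- and WT IL of the tested members of 25 gene lists (x axis), with 1 dot per gene, the number tested in brackets and the median as a black bar. Called genes are red (higher) or blue (lower) and the others grey. The mitosis and DNA replication medians lie at 0.31 and 0.25, and those of the posterior and anterior lobe markers at -0.51 and -0.29.

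Among 33 p53 targets and BCL2 family genes, 3 were called, 9.09% against 2.71% of all genes. Bcl2l11, the pro-apoptotic BIM, and the p53 target Plk2 rose by 0.44 and 0.62, and the anti-apoptotic Bcl2 fell by 0.40 (limma adjusted p = 0.0127, 0.0241 and 0.0292). Bcl2l11 had 9.13, 9.15, 9.14 and 9.04 in WT and 9.44, 9.67 and 9.56 in p27-/-;Sox2+/- samples. Bcl2 had 9.20, 9.18, 9.34 and 9.02 in WT and 8.77, 8.81 and 8.77 in p27-/-;Sox2+/- samples. The median of the list was 0.09, and none of the 3 was called without p27-/-;Sox2+/- replicate 2, in which Bcl2l11 had its highest value, nor with the posterior lobe covariate. Without p27-/-;Sox2+/- replicate 1, 1 of the 3 was called.

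Metabolic and stress genes were examined in lists as well. Of 40 HIF-1 target and glycolysis genes 1 was called, and this share of 2.5% was near the 2.71% of all tested genes. The median was 0.02. The called gene was Pfkfb3, a kinase that stimulates glycolysis, which fell by 0.59 (limma adjusted p = 0.0171, and 0.107 without p27-/-;Sox2+/- replicate 2). The hypoxia targets Vegfa and Slc2a1 had differences of -0.37 and -0.04 (limma adjusted p = 0.306 and 0.896). None of 32 genes of cholesterol and fatty acid synthesis, 32 of ER folding, 22 immediate early genes and 21 clock genes was called by limma in the 10-sample fit, with 3, 2, 6 and 3 at an unadjusted p under 0.05 and medians of 0.08, -0.04, -0.05 and 0.12. With array weights, 1, 1, 3 and 1 of these were called, and in every other fit at most 2.

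Markers of other cell types were lower on balance. Of 14 endothelial genes, 13 had a negative difference and 3 were called, 21.4% against 2.71% of all genes. The receptors Flt1, Kdr and Robo4 were called lower, with falls of 0.80, 0.67 and 0.44 (limma adjusted p = 0.0379, 0.0459 and 0.0284). The endothelial cadherin Cdh5 had 6.52, 6.63, 6.55 and 6.63 in WT and 6.66, 6.56 and 6.83 in p27-/-;Sox2+/- samples, and Pecam1 had a difference of -0.29 with overlapping groups (limma adjusted p = 0.424). The centred mean of the 14 genes ranged from 0.01 to 0.33 in WT mice and from -0.23 to 0.09 in p27-/-;Sox2+/- mice. None of the 3 was called without WT replicate 4 or p27-/-;Sox2+/- replicate 1 or 2, or with the posterior lobe covariate, the replicate block, no filter or quantile normalization, 1 was called without WT replicate 1, p27-/- replicate 1 or p27-/-;Sox2+/- replicate 3, and the part of endothelial cell number was not tested. Of 28 fibroblast, mural and collagen genes 25 had a negative difference, of 18 macrophage and leukocyte genes 17, and of 11 genes of neurons, Schwann and oligodendroglial cells 10, with medians of -0.2, -0.22 and -0.15 and no limma call (7, 4 and 1 at an unadjusted p under 0.05). Their centred means ranged from -0.04 to 0.27, from -0.20 to 0.46 and from -0.21 to 0.51 in WT, and from -0.28 to 0.09, from -0.23 to 0.06 and from -0.33 to 0.24 in p27-/-;Sox2+/- samples. Of 34 interferon and antigen presentation genes, 28 had a negative difference, limma called none (7 at an unadjusted p under 0.05) and the median was -0.22, with a mean of 0.53 in WT replicate 1 and of -0.08 to -0.03 in replicates 2 to 4.

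Of 11 anterior lobe genes 1 was called, 9.09% against 2.71% of all genes. This was Fshb, the gonadotroph hormone subunit, which was lower at -2.27 (limma adjusted p = 0.0294). Its log2 values were 7.15, 9.24, 9.61 and 9.64 in WT and 6.52, 5.91 and 7.50 in p27-/-;Sox2+/- samples, so that WT replicate 1 overlapped with the mutants. The call was lost without WT replicate 3 or 4 (0.079 and 0.0795) or p27-/-;Sox2+/- replicate 1 or 2 (0.102 and 0.162). Gh and Prl, of somatotrophs and lactotrophs, had differences of -1.68 and -0.39 that did not pass the threshold (limma adjusted p = 0.0533 and 0.905), and Prl reached 17.54 in WT replicate 2 against 11.40 to 13.09 in the other WT samples. With the mean of the anterior lobe markers as a covariate, 499 genes were called.

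**Figure D4:**
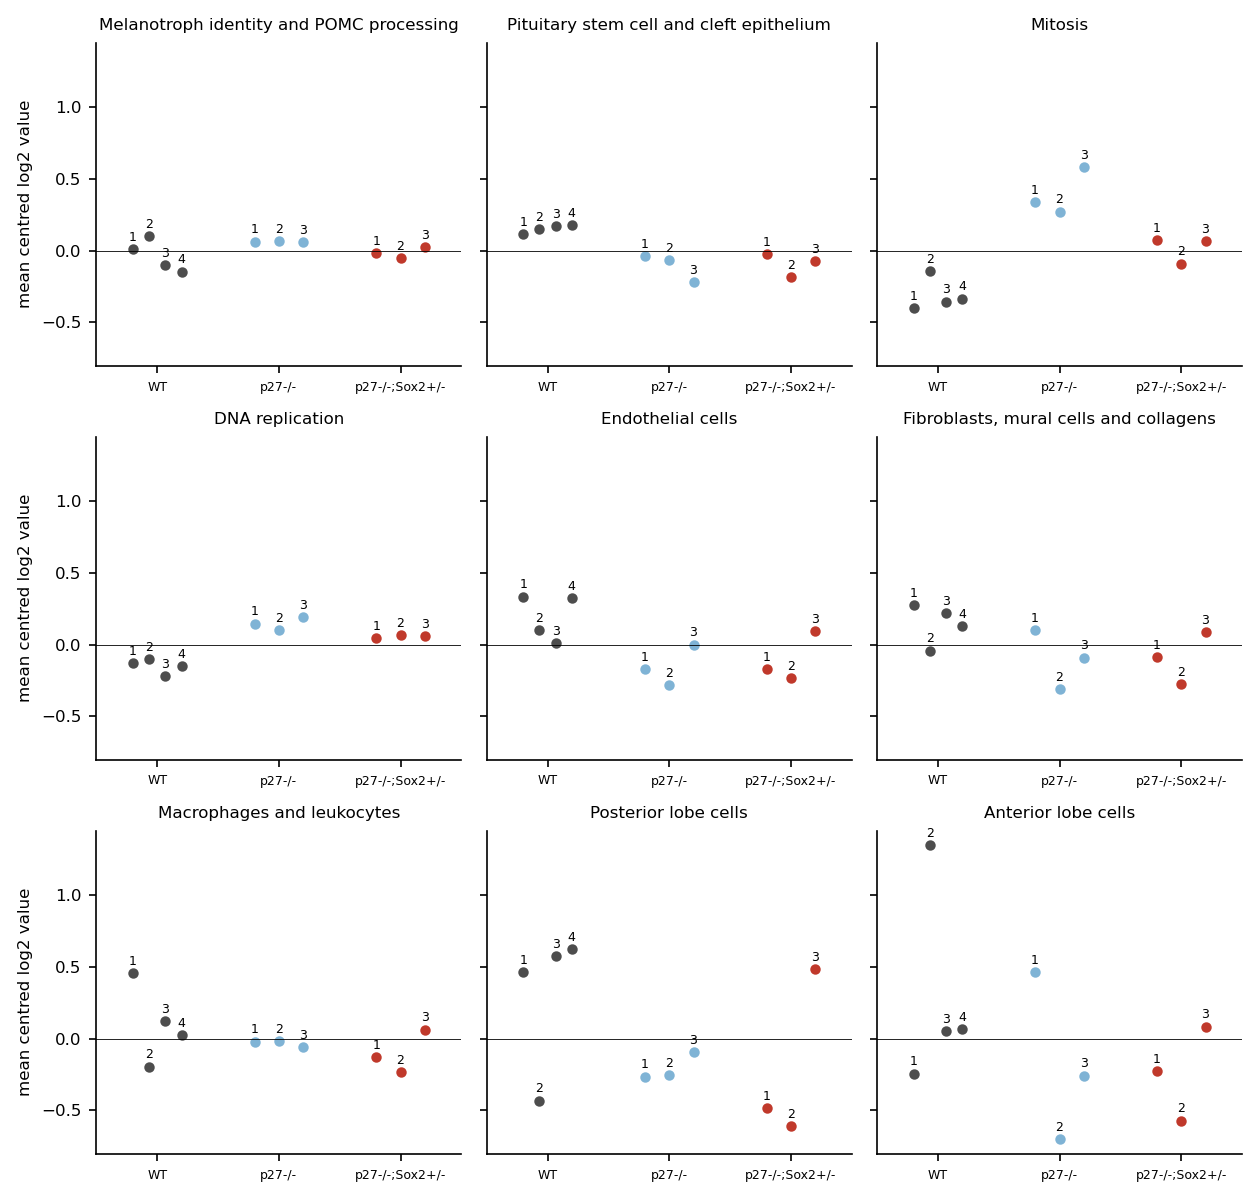
Mean over the genes of 9 lists, each gene centred over the 10 samples (y axis, log2), in each WT (grey), p27-/- (light blue) and p27-/-;Sox2+/- (red) sample, numbered by replicate. The replication list is at 0.04 to 0.06 in p27-/-;Sox2+/- mice, above the -0.22 to -0.10 of WT mice, whereas in the posterior lobe list p27-/-;Sox2+/- replicate 3 lies among the WT samples and WT replicate 2 among the mutants.

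The direct contrast of the 2 mutants called 25 of the 17268 genes (0.145%), and 8 of these are among the 468. Both mutants were compared with the same WT samples, so their changes against WT are not independent and are set side by side only. Ido2 (chr8:24531892-24576414), an enzyme of the kynurenine pathway, had 4.13, 4.25, 4.14 and 4.17 in WT and 5.60, 6.12 and 5.44 in p27-/-;Sox2+/- samples. It rose by 1.55 (standard error 0.16, limma adjusted p = 0.000484) against WT, with 0.25 in p27-/- (0.375), and the mutants differed by 1.3 (limma adjusted p = 0.0163). Sectm1b, a secreted immune ligand, had 4.01, 4.17, 3.95 and 4.11 in WT and 4.91, 4.84 and 5.01 in p27-/-;Sox2+/- samples and rose by 0.86, with 0.12 in p27-/-, a difference of 0.74 between the mutants (limma adjusted p = 0.0163). Both genes had low values, near the minimum for testing.

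Flrt3 and 3425401B19Rik rose by 0.65 and 0.75 against WT, with -0.03 and 0.003 in p27-/-, and differed between the mutants by 0.68 and 0.75 (limma adjusted p = 0.0435 for both). Cyria, an inhibitor of RAC1 signalling, fell by 0.47 against WT, with 0.27 in p27-/-, and differed by -0.73 (limma adjusted p = 0.042). In Ccnd2 and Cgnl1, a junction protein, the fall against WT was smaller than in p27-/-. For Ccnd2 it was -2.17 with -3.16 in p27-/- (difference 0.99, limma adjusted p = 0.0485), and for Cgnl1 -0.62 with -1.45 (difference 0.82, limma adjusted p = 0.0307). The differences between the mutants were not robust. Without p27-/-;Sox2+/- replicate 1 or 2, or without p27-/- replicate 2 or 3, none of the 17268 genes was called between the mutants, and 4 were called without p27-/- replicate 1, 2 without p27-/-;Sox2+/- replicate 3, 10 without WT replicate 4 and 41 without WT replicate 1.

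The called genes were spread over the genome. Of the tested genes with a RefSeq position, the share called ranged from 1.08% on chromosome 4 to 3.38% on chromosome 15 among the autosomes and was 2.22% on chromosome X. Within 10 Mb of Cdkn1b, 3 of 105 other genes were called, 2.86%. They were Ccnd2, whose midpoint lay 7.78 Mb from that of Cdkn1b, Gprc5a, an orphan receptor induced by retinoic acid, at 0.152 Mb, and Lmo3, a LIM-only cofactor, at 3.55 Mb. Gprc5a had 4.89, 5.05, 4.94 and 5.01 in WT and 5.71, 5.92 and 5.58 in p27-/-;Sox2+/- samples and rose by 0.76 (standard error 0.12, limma adjusted p = 0.00521), with 0.55 in p27-/-. Lmo3 rose by 0.58 (limma adjusted p = 0.0105). Within 10 Mb of Sox2, 1 of 77 genes was called, 1.3%. This was Gm20515 (chr3:34427371-34438840), at 0.218 Mb, with 6.02, 5.85, 5.98 and 5.89 in WT and 4.99, 5.18 and 4.90 in p27-/-;Sox2+/- samples, a fall of 0.91 (standard error 0.15, limma adjusted p = 0.00728). In p27-/- samples its difference from WT was -0.25 (limma adjusted p = 0.323), and that between the mutants did not pass the threshold (limma adjusted p = 0.19). Flanking genes of strain origin around the targeted alleles cannot be told apart from effects of the alleles in mice of mixed background.

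Genes without a symbol were called more often than others. Of 2414 such genes 132 were called, 5.47% against 2.26% of those with a symbol, and 124 of the 132 were lower. The smallest p-values in each direction belonged to ENSMUSG00000107379 and ENSMUSG00000105265 among the lower genes, which fell by 1.28 and 0.97, and to ENSMUSG00000109372 and ENSMUSG00000097589 among the higher genes, which rose by 0.65 and 0.73 (limma adjusted p = 0.00149, 0.0027, 0.00592 and 0.00774). The share of calls was 2.34% of 13444 protein-coding genes and 1.99% of 502 lncRNA genes with a RefSeq position.  The counting did not use strand, so that reads of overlapping and antisense genes cannot be told apart.

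**Figure D5:**
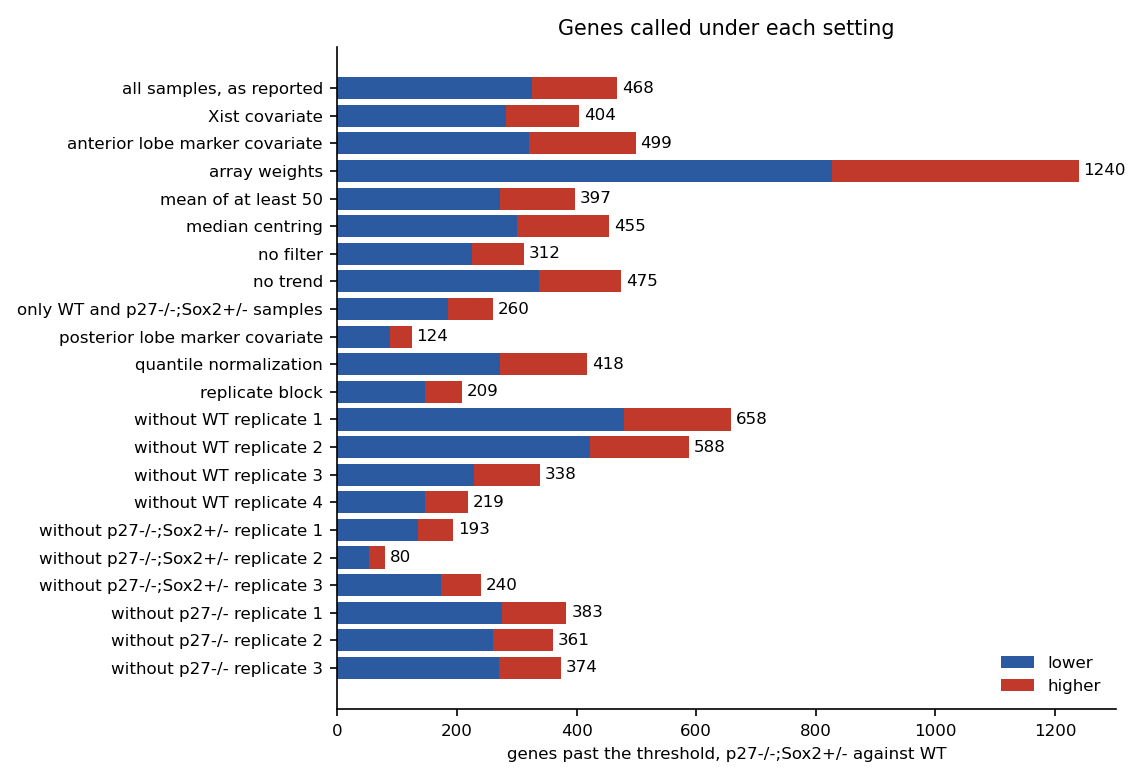
Number of genes called between p27-/-;Sox2+/- and WT IL (x axis, lower in blue and higher in red, total at the end of the bar) in the fit of all samples and under each alternative. The total is 468 with all samples, 80 without p27-/-;Sox2+/- replicate 2 and 1240 with array weights, and in every bar the lower genes outnumber the higher genes.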

How the data were processed

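Dissected IL of 4 WT, 3 p27-/- and 3 p27-/-;Sox2+/- mice was sequenced in bulk. The authors aligned reads with STAR 2.5.2a, counted them per gene with RSEM (version 1.3.30 in the submitters' processing notes) on the Ensembl annotation of GRCm38, normalized the counts with DESeq2 1.18.1 and deposited log2 values for 29527 genes. The transformation is not given in the sources used here, and the values range from -1.89 to 21.5. Reads per library are unknown, so no intervals that need them are given. Samples were grouped by the genotype label, and nothing in the labels says more about which mice shared a litter.

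Genes whose mean reached 10 after conversion from log2 were tested as deposited in 1 fit of the 3 genotypes (limma 3.58.1 in R 4.3.3, lmFit and eBayes with a trend, Benjamini-Hochberg adjustment over 17268 genes). The 3 groups share 1 estimate of the spread. Symbols were matched for 14854 tested genes and RefSeq positions (GRCm38.p6) for 14344, 83.1%. Named were the 12 smallest p-values and 5 largest changes in each direction among called genes with a symbol and no overlap, the targeted genes, called list members with up to 4 others per list, called genes within 10 Mb of Cdkn1b or Sox2, and, chosen after their values were seen, called genes that also differed from p27-/-. A few genes that these rules chose are not reported here. The comparison, lists and rules were chosen with earlier results of these data known. On simulated data with 200 of 17268 genes changed, 31% of changes of 0.5, 91.5% of 1 and 99.5% of 2 were recovered, with up to 6.1% false calls. The simulated spread was drawn independently for each gene, without shifts shared by many genes. These shares therefore need not hold for the real libraries. Alternatives were no filter, a minimum of 50, the 2 groups alone, quantile normalization or median centring, array weights, a fit without trend, a replicate block, Xist or marker covariates and each sample left out. Python 3.11.15, numpy 2.4.6, pandas 2.3.3, scipy 1.17.1 and matplotlib 3.10.9 were used.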

Additional observations from a re-analysis of the deposited data

Results flagged for a closer look

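Among 147 measures (named genes and list means), 10 had a WT sample that stood apart from the other 3 by a ratio of gap to range above 0.829, where chance gives about 7.4. WT replicate 2 was the highest in Ccnd2 (11.87 against 11.54 to 11.59, ratio 0.866), Top2a (6.98 against 6.18 to 6.27, 0.885) and Dtl (5.07 against 4.67 to 4.70, 0.916), and the lowest in the means of the guidance list (-0.045 against 0.067 to 0.085, 0.862) and the posterior lobe list (-0.43 against 0.46 to 0.62, 0.847). WT replicate 1 was the lowest in Fshb (7.15 against 9.24 to 9.64, 0.838) and the highest in Rab27a (10.01 against 9.79 to 9.81, 0.885), Ifit3 (7.76 against 6.90 to 7.01, 0.87) and the mean of the interferon and antigen presentation list (0.53 against -0.079 to -0.034, 0.926). WT replicate 3 was the highest in Sox2 (7.75 against 7.34 to 7.39, 0.885).

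The contrast of p27-/-;Sox2+/- with p27-/- passed the threshold in 7 named genes, with a log2 difference of 1.3 for Ido2, 0.74 for Sectm1b, 0.75 for 3425401B19Rik, 0.68 for Flrt3, 0.99 for Ccnd2, 0.82 for Cgnl1 and -0.73 for Cyria (limma adjusted p between 0.0163 and 0.0485).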

How the results depend on the processing

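No named gene that was called changed its direction under any alternative. Where the groups did not overlap, leaving out a sample could not have reversed it. The count of 468 called genes was 1240 with array weights, 260 with only WT and p27-/-;Sox2+/- samples, 124 with the posterior lobe marker covariate and 209 with the replicate block. In the other alternatives with all samples it was between 312 and 499, and with a sample left out between 80 and 658. The 25 genes between the mutants became 283 with array weights, 6 without a filter, 8 without a trend, 15 after quantile normalization and 2 with the replicate block, and 0 to 41 with a sample left out. Same-numbered samples of different groups did not deviate together more than others. Over genes, r was from -0.238 to 0.182 in 9 pairs and from -0.191 to 0.265 in 24 other pairs. With so few samples per group, this cannot show whether same-numbered samples shared a litter or batch, and the main fit used no pairing. Cdkn1b was between -0.829 and -0.644 with a sample left out and lost its call without p27-/-;Sox2+/- replicate 2 (-0.647, adjusted p = 0.0661), and Sox2 was called with array weights (-0.48, adjusted p = 0.0275). Over the genes chosen by the naming rule, a call was lost 140 times with a sample left out and 103 times under the other alternatives. The depth of the libraries is unknown, and genes not called may still differ.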
